A study of Mus musculus with 278 samples.

Results

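Paracrine effectors linked to hormone-sensing luminal cells were followed in single mammary epithelial cells. They are 9 of the 25169 kept genes, namely the enzymes Tph1 and Arg1, the secreted factors Tnfsf11, Ptn, Calca, Pthlh, Stc1 and Stc2, and the receptor Tnfrsf11a. The genes were listed by name for that link, with earlier results of these cells known, so their levels and their co-detection with receptor genes are a description, and no test was run on them. Cells with 50000 or more reads were used (read pairs assigned to kept genes), which retained 222 of 278 cells. All cells came from untreated mice of the strain FVB/NJ and were captured with the Fluidigm C1, an instrument that makes a separate library from each cell. Adult luminal cells (41 of 43 used) and basal cells of the same stage (85 of 112) had been sorted from adult glands by the surface antigens CD29 and CD24, after cells with blood, immune or endothelial antigens had been gated out. Pregnancy cells (96 of 123) were total epithelium from glands at mid-pregnancy and were not separated by lineage, so stage and sort cannot be told apart. No label ties a cell to an animal, so each group counted as 1 sample and no difference has a replicate check.

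Hormone-sensing cells, also called mature luminal cells, are the luminal cells that carry the receptors for estrogen (Esr1), progesterone (Pgr) and prolactin (Prlr). Many of the cells that divide in response to ovarian hormones lack these receptors, and hormone-sensing cells pass the signal on through secreted factors. The best known of these is RANK ligand, encoded by Tnfsf11, which acts through its receptor RANK (Tnfrsf11a) on neighbouring epithelial cells. Kit, a receptor tyrosine kinase, is a common marker of luminal progenitors.

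The depth behind these values varied between groups. Median reads per used cell were 638868 in adult luminal, 378773 in adult basal and 215372.5 in pregnancy cells. The used cells closest to the threshold held 173519, 67280 and 54047 reads in the same order, and the closest cells left out held 42531, 46860 and 49598. Shares of cells with a gene were therefore taken after each cell had been thinned at random to 50000 reads. Levels are CPM (the reads of a gene, summed over the cells of a group, scaled to the group's reads of all kept genes) and RPKM, the same value per kilobase of exon, which alone is used to compare genes. All intervals are exact at the 95% level. They cover counting error only, because no molecular identifiers were used and copies of 1 molecule cannot be recognised. Adult luminal cell 35 (numbers are those of the cell titles) held 9 of 10 basal markers besides its luminal ones, and values without it are given where it changes a call or held many of a gene's reads.

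Promoters are shown for the members that were found together in the same adult luminal cells (Tph1, Ptn and Stc2) and for Calca, because Tph1 and Calca hold a half-site of the estrogen response element. They are RefSeq windows on GRCm38.p6, from 250 bases before to 50 after a start site, all on the minus strand, at chr7:46667328-46667627 (Tph1), chr7:114636308-114636607 (Calca), chr6:36810130-36810429 (Ptn) and chr11:31370012-31370311 (Stc2). Capitals mark the half-site AGGTCA or its reverse complement TGACCT, searched on both strands.
Tph1: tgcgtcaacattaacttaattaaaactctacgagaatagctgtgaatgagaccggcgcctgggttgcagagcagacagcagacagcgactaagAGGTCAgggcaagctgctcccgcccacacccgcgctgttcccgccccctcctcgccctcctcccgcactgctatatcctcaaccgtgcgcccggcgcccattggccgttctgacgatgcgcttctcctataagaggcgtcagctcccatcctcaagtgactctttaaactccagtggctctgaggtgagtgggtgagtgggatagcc
Calca: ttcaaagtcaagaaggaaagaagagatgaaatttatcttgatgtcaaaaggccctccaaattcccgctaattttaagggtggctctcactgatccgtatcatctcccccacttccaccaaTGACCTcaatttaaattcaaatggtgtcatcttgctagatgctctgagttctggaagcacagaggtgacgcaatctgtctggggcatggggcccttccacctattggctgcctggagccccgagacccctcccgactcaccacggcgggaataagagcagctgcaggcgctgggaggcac
Ptn: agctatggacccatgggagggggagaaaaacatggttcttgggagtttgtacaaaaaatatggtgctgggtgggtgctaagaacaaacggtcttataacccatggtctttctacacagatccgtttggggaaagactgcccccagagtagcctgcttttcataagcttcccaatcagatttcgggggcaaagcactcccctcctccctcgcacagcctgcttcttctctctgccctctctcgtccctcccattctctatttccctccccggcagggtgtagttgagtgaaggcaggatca
Stc2: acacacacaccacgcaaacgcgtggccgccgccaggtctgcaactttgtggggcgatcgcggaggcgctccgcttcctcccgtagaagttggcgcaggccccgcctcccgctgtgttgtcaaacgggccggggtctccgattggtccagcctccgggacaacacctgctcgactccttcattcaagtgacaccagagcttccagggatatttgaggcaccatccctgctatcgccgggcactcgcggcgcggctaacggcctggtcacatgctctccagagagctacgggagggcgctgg
Windows were matched for 7 members, with 8 entries in all, and were not found for Stc1 and Arg1. The half-site was in 1 of the 2 Tph1 entries and in that of Calca, and in no window of the other 5 members. Of all 32851 promoter windows, 16.3% hold it. The full palindrome, AGGTCA followed after 3 bases of any kind by TGACCT, was in 0.0213% of all windows and in no member's. A match of letters is a description of the window, and a window without one says only that these letters are not in it.

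**Figure D1:**
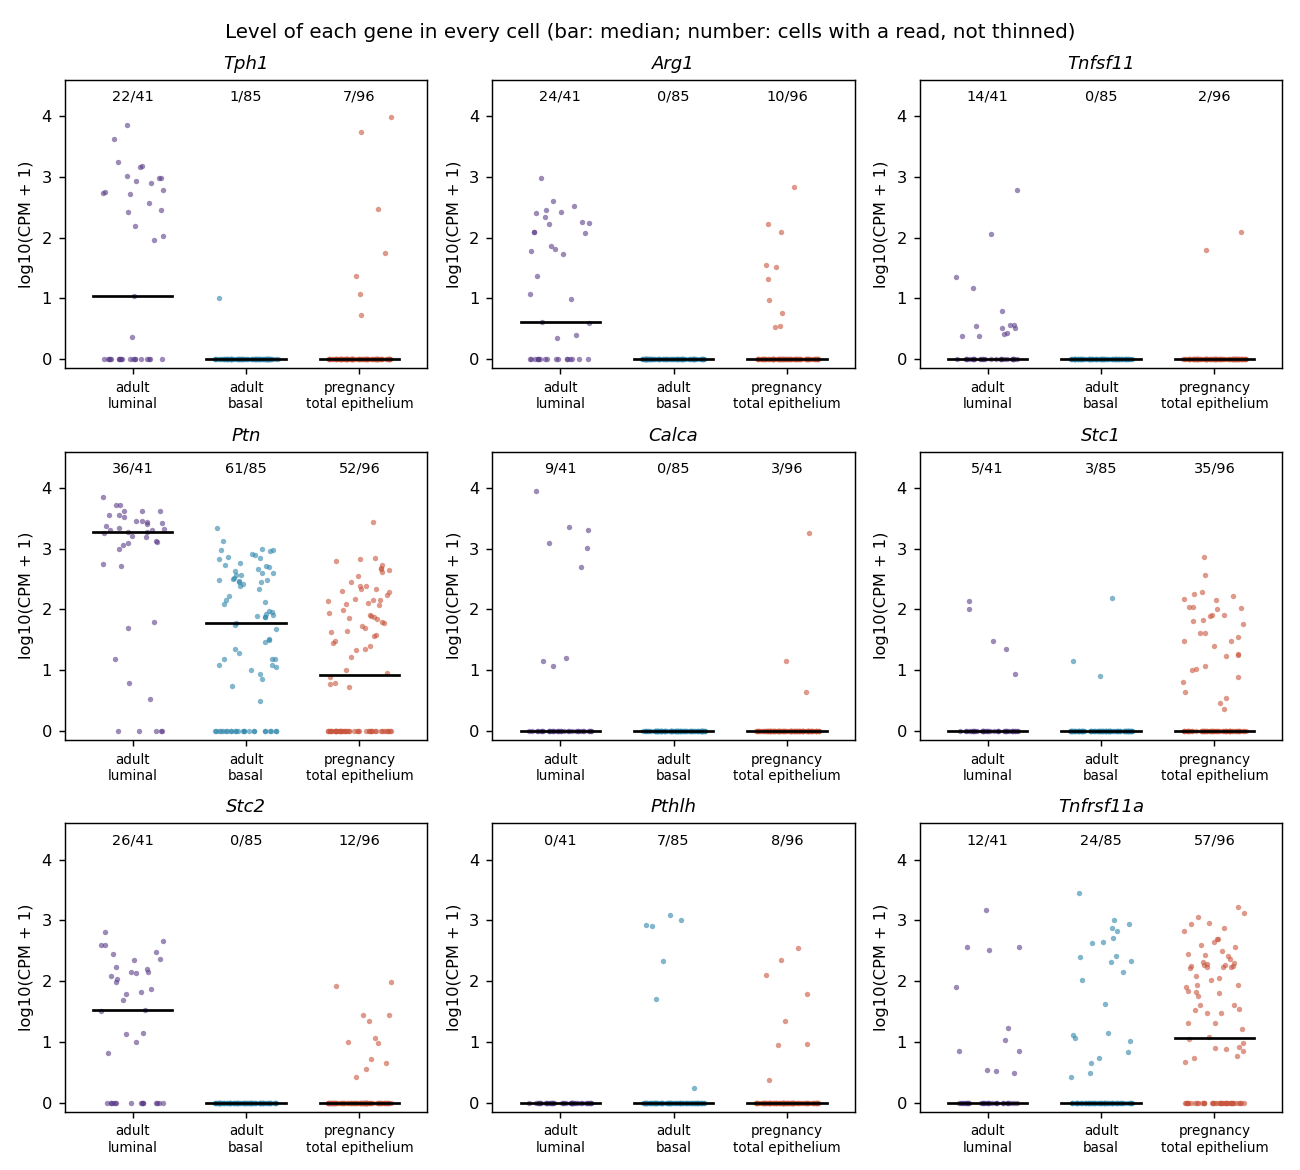
Level of each of the 9 genes in every used cell, as log10(CPM + 1) on the vertical axis, for adult luminal, adult basal and pregnancy cells on the horizontal axis. Each point is 1 cell, the bar is the median, and the numbers give the cells with a read before thinning (for example 22 of 41 adult luminal cells for Tph1 and 1 of 85 adult basal cells).

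Tph1 encodes tryptophan hydroxylase 1, the rate-limiting enzyme of serotonin synthesis outside the nervous system (Entrez gene 21990, chromosome 7, 46644641 to 46672537). In adult luminal cells its CPM ran from 0 to 7165, with a median of 9.72. It was found in 21 of 41 thinned cells (51.2%, interval 35.1 to 67.1) and in 22 before thinning. Adult luminal cells thus fell into 19 without a read and 20 with 5 or more, and few lay between. Only 1 of 85 thinned adult basal cells held the gene, with 1 read, and the groups overlapped where both were at 0. The summed level was 774.7 CPM in adult luminal cells (763.8 to 785.7) against 0.0280 CPM in adult basal cells. Cell 8 gave 36.4% of the adult luminal reads, and 512.9 CPM remained without it. In pregnancy 5 of 96 thinned cells held Tph1 (5.21%, interval 1.71 to 11.7), and the summed level was 60.2 CPM, of which cell 73 gave 50.4%.

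Arg1, arginase 1, splits arginine into ornithine and urea (gene 11846, chromosome 10, 24915207 to 24927470). Its CPM ran from 0 to 955.5 in adult luminal cells with a median of 3.13, and 18 of 41 thinned cells held it (43.9%, interval 28.5 to 60.3). No adult basal cell held a read, which allows a share of up to 3.53% of cells. In pregnancy 7 of 96 thinned cells held it (7.29%). The level fell in that order, from 96.2 CPM in adult luminal cells to 5.34 CPM in pregnancy cells and 0 in adult basal cells. Without cell 35, which held 290 of the 2393 adult luminal reads, the level was 87.1 CPM. Macrophages can also express Arg1. Adult luminal cells held at most 1 of 7 immune markers each, 1.13 CPM in sum, and the part of such cells in the level was not tested. Arg1 overlaps the annotated Gm40616, and counting by strand is not stated in the sources used here, so reads of the pair cannot be told apart.

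Tnfsf11, RANK ligand (gene 21943, chromosome 14, 78277446 to 78308043), was rare and uneven. It was found in 3 of 41 thinned adult luminal cells (7.32%, interval 1.54 to 19.9) and in 14 before thinning, at a median of 0 and at most 608.1 CPM. Cell 23 held 470 of the 571 adult luminal reads, cell 2 held 73, cell 21 held 11 and cell 15 held 5, while the other 10 cells held 1 or 2 reads each. The group level of 22.96 CPM therefore rested on cell 23, and it was 4.19 CPM without it. No adult basal cell held a read (up to 3.53% of cells), and 2 of 96 pregnancy cells did (2.08%), with 9 reads in cell 15 and 8 in cell 48.

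Ptn encodes pleiotrophin, a secreted heparin-binding growth factor (gene 19242, chromosome 6, 36714924 to 36810179). It was the member found in most adult luminal cells, 33 of 41 after thinning (80.5%, interval 65.1 to 91.2), and its CPM ran from 0 to 6975 with a median of 1870. In adult basal cells it ran from 0 to 2166 with a median of 58.7, and 54 of 85 thinned cells held it (63.5%, interval 52.4 to 73.7). In pregnancy cells it ran from 0 to 2738 with a median of 7.25, and 44 of 96 held it (45.8%). The 3 groups overlapped, and adult luminal cells stood apart by amount, with 2025 CPM in sum (2007 to 2042) against 214.6 in adult basal (209.8 to 219.4) and 77.2 in pregnancy cells (73.7 to 80.9).

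Calca gives rise to calcitonin and, by alternative splicing, to calcitonin gene-related peptide (gene 12310, chromosome 7, 114625981 to 114636910), and counts per gene do not separate the products. It was found in 8 of 41 thinned adult luminal cells (19.5%, interval 8.82 to 34.9) and 9 before thinning, from 0 to 8845 CPM with a median of 0. Cells 23, 6, 2, 21, 9 and 35 held 6836, 1976, 1284, 821, 771 and 352 reads, and the remaining 3 cells held 10, 4 and 3. The group level was 484.9 CPM and 216.7 CPM without cell 23, so a few cells with very high levels set it. No adult basal cell held a read (up to 3.53% of cells). In pregnancy 1 of 96 thinned cells held the gene, and pregnancy cell 15 carried 136 of the 140 reads. The paralog Calcb had reads in adult luminal cells 9, 21, 2 and 6 alone among the adult cells, 808, 113, 10 and 1 in that order, and none in cell 23, where Calca was highest.

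Pthlh encodes parathyroid hormone-related protein, a secreted peptide that acts on the mammary mesenchyme of the embryo and on bone during lactation (gene 19227, chromosome 6, 147252109 to 147264013). None of 41 adult luminal cells held a read of Pthlh (up to 7.32% of cells). Pthlh was found in 6 of 85 thinned adult basal cells (7.06%, interval 2.63 to 14.7), with a median of 0 and a highest value of 1216 CPM. Cells 92, 11 and 81 of that group held 587, 489 and 397 of its 1692 reads. In pregnancy 7 of 96 thinned cells held it (7.29%), of which 1 carried luminal markers, 3 basal markers and 3 both sets. Among the adult cells Pthlh was thus read in basal cells only. The limit for adult luminal cells lies above the adult basal share, so a lower share in luminal cells is not shown.

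Stc1 and Stc2 encode the secreted glycoproteins stanniocalcin 1 and 2. Stanniocalcin 2 is an inhibitor of the protease PAPP-A. Stc2 (gene 20856, chromosome 11, 31359441 to 31370061) was found in 23 of 41 thinned adult luminal cells (56.1%, interval 39.7 to 71.5), from 0 to 656.8 CPM with a median of 31.98. It had no read in 85 adult basal cells (up to 3.53%) and was found in 5 of 96 pregnancy cells (5.21%). Stc1 (gene 20855, chromosome 14, 69029289 to 69041401, overlapping the annotated Gm41192) was found in 3 of 41 adult luminal (7.32%), 3 of 85 adult basal (3.53%) and 24 of 96 pregnancy cells (25.0%, interval 16.7 to 34.9). The medians of Stc1 were 0 in all 3 groups, and its highest values were 135.5, 155.0 and 726.2 CPM in the same order. The levels of the pair were therefore in opposite order between adult luminal and pregnancy cells, groups that differ in stage and in sort. Stc2 stood at 65.9 RPKM in adult luminal and 2.45 in pregnancy cells, and Stc1 at 2.02 and 10.8.

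Tnfrsf11a, RANK, is the receptor of the ligand that Tnfsf11 encodes (gene 21934, chromosome 1, 105780673 to 105849444). It was found in 6 of 41 thinned adult luminal (14.6%, interval 5.57 to 29.2), 21 of 85 adult basal (24.7%, 16.0 to 35.3) and 47 of 96 pregnancy cells (49.0%, 38.6 to 59.4). Its CPM ran up to 1460, 2838 and 1696 in those groups, with medians of 0, 0 and 10.5, so the groups overlapped. In sum it stood at 45.5, 158.4 and 144.7 CPM. Cell 22 held 431 of the 1132 adult luminal reads and cell 18 held 28.2% of those in adult basal cells, and without these cells the levels were 28.5 and 115.5 CPM. Of the 6 thinned adult luminal cells with Tnfrsf11a, 3 held 3 or more basal markers, and without cell 35, the most basal of them, the level was 37.3 CPM.

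Per kilobase of exon, the order of the summed levels in adult luminal cells was Ptn (1002 RPKM), Tph1 (359.0), Calca (325.7), Stc2 (65.9), Arg1 (65.2), Tnfsf11 (10.3), Tnfrsf11a (9.07), Stc1 (2.02) and Pthlh (0). Counting intervals overlapped between Stc2 and Arg1 and between Tnfsf11 and Tnfrsf11a. By the spread between cells no neighbours in the order were apart, since the quartile ranges of RPKM per cell overlapped in each pair. In pregnancy cells Ptn (38.2 RPKM) came before Tnfrsf11a (28.8), Tph1 (27.9), Stc1 (10.8), Pthlh (4.19), Calca (4.05), Arg1 (3.62), Stc2 (2.45) and Tnfsf11 (0.328), and the intervals of Tnfrsf11a and Tph1 overlapped, as did those from Pthlh to Arg1 between neighbours. In adult basal cells the order was Ptn (106.2 RPKM), Tnfrsf11a (31.5), Pthlh (31.3) and Stc1 (0.829), with the other 5 members at 0.0130 RPKM or below. Tnfrsf11a and Pthlh could not be placed in order there, as their intervals overlapped.

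Whether the members set adult luminal apart from adult basal cells was read from the ratio of summed CPM, on the log2 scale. In all, 6 of 9 members were 4-fold or more higher in adult luminal cells, beside 21.3% of the 15338 genes with 1 CPM in 3 or more cells, and 1 was 4-fold or more lower, beside 13.8%. All 9 members passed that filter, some of them only through the group in which they were high. The median of the 9 was 8.10, beside 0.32 over all genes tested, and 5 of the 9 values are bounds because 1 group had no read. Tph1 had a log2 ratio of 14.76 (12.28 to 20.06) on 19262 reads against 1. Calca, Stc2, Arg1 and Tnfsf11 had no basal read, which puts their levels at least 5780.5-fold, 1408-fold, 1147-fold and 273.8-fold higher in adult luminal cells. Without the adult luminal cell with the most reads, cell 23 for both genes, the log2 bound fell from 12.50 to 11.30 for Calca and from 8.10 to 5.61 for Tnfsf11. Without the top cell of each group Tph1 had no basal read left, and its bound was 12.57. Ptn was higher by 3.24 (3.20 to 3.27) and Stc1 by 1.28 (0.94 to 1.64). Adult basal cell 9 held 107 of the 111 basal Stc1 reads, and without the cell with the most reads in each group Stc1 was higher by 5.14, which made 7 members higher. Of the 3 thinned adult luminal cells with Stc1, 2 held 3 or more endothelial markers and 2 held 3 or more basal markers. Fibroblast markers were found at 3 or more in 1 of them, and the part of such cells in the Stc1 level was not tested. Pthlh was at least 392.1-fold lower. That bound covers the counting of reads only. The gene was found in 6 of 85 thinned adult basal cells, and a lower share of adult luminal cells is not shown. Tnfrsf11a had a log2 ratio of -1.80 (-1.89 to -1.71). TMM scaling moves all of these ratios by -0.30 and turned the sign of none. Tnfrsf11a then passed 4-fold lower, at -2.09, as it did without cell 35 (-2.09) and without the cell with the most reads in each group (-2.02), and it was at -0.69 with every cell given the same weight.

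Which adult luminal cells carried the members was asked with 10 markers of hormone-sensing cells (Esr1, Pgr, Prlr, Foxa1, Cited1, Areg, Cxcl15, Esrrb, Tbx3 and Wnt4). Of the 41 cells, 31 had a read of 5 or more of these markers after thinning and are called hormone-sensing-marked here, and 10 had 3 or fewer. That threshold was set after the distribution had been seen. No cell had 4 markers, 3 cells had 5 and 1 had 3. Of the receptor genes among these markers, which the rule itself counts, Prlr, Esr1 and Pgr were found in 31, 24 and 23 of the 31 marked cells and in 9, 0 and 3 of the 10 others. Kit was found in 9 marked (29.0%) and 5 other cells (50.0%). No adult basal cell had more than 2 of the 10 markers.

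**Figure D2:**
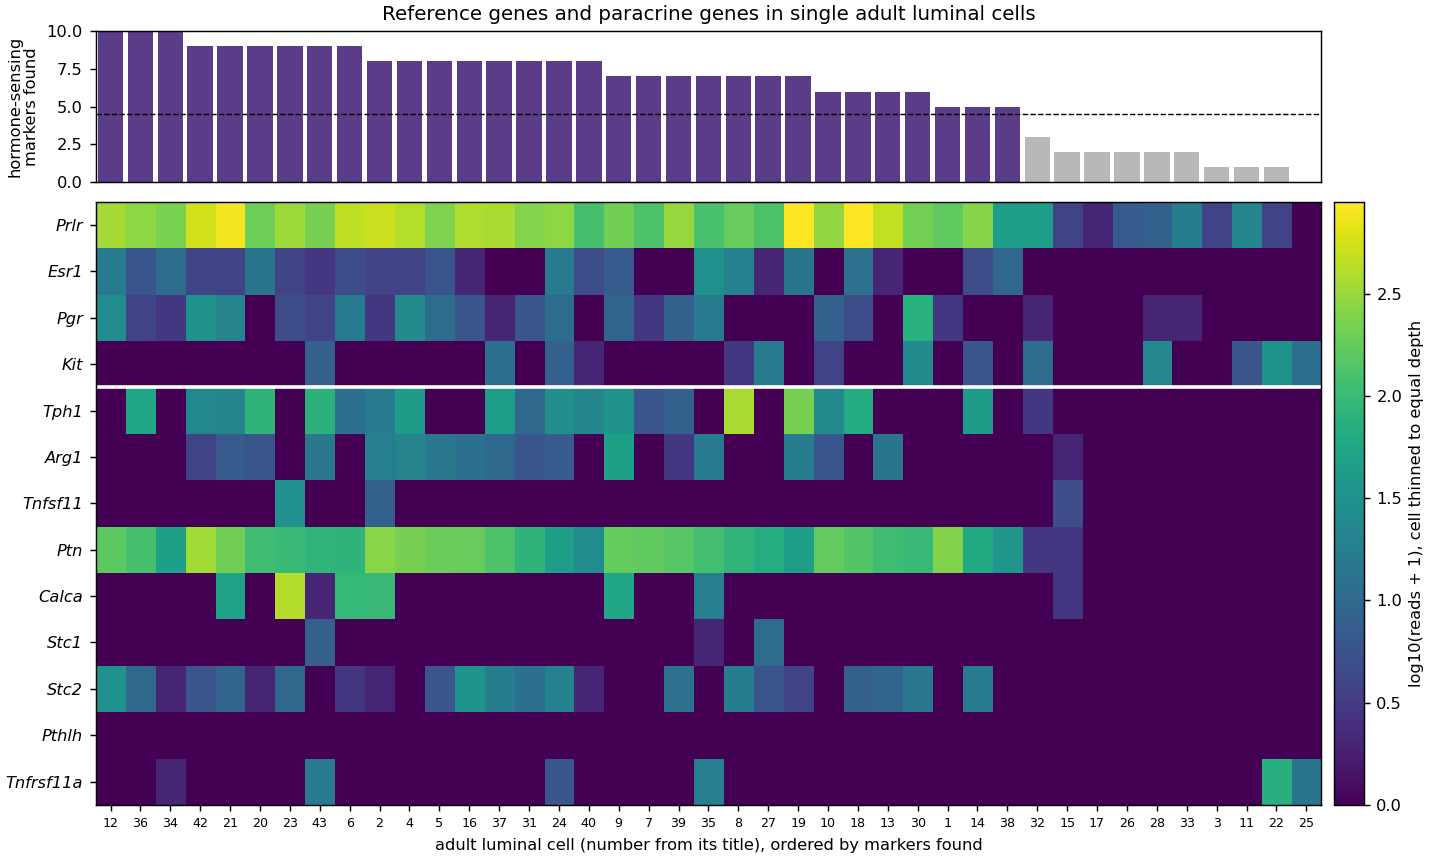
Adult luminal cells in columns, ordered by how many of 10 hormone-sensing markers they held (bars, with the dashed line between 4 and 5), and log10(reads + 1) after thinning to 50000 reads for 4 reference genes (above the white line) and the 9 paracrine genes (below it). Ptn has a read in all 31 marked cells at the left and in 2 of the 10 others at the right, while Tnfrsf11a has its highest value at the right end, in cell 22.

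Ptn, Stc2, Tph1 and Arg1 followed the hormone-sensing markers. Ptn was found in 31 of 31 marked cells (interval 88.8 to 100) and in 2 of 10 others (20.0%, 2.52 to 55.6), and its lowest value in a marked cell, 511.5 CPM, was above its highest in the others, 60.5 CPM. Stc2 was found in 23 of 31 marked cells (74.2%) and in none of the others, before thinning as well. Tph1 was found in 20 of 31 (64.5%) against 1 of 10, and Arg1 in 17 of 31 (54.8%) against 1 of 10. These are the 4 members found 25 percentage points or more oftener in marked cells, of the 6 members with a read in at least 10% of adult luminal cells, beside 23.9% of 8127 genes of that kind and a median difference of 12.6 points over those genes. No member was 25 points or more less often found, beside 1.34% of genes.

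In the share of cells with a read, the remaining members differed less between marked and other cells. By summed level, 7 of the 8 members with a ratio were 4-fold or more higher in marked cells, beside 27.3% of 15338 genes. Of the 8, 1 was 4-fold or more lower, beside 8.75% of genes. Calca was found in 7 of 31 marked cells (22.6%) and 1 of 10 others, yet 12054 of its 12057 reads were in marked cells. Tnfsf11 had 562 of 571 reads in marked cells, and it was found in 2 of 31 and 1 of 10. Cell 23 held 470 of those reads, so the place of Tnfsf11 among the 7 rested on 1 cell. Tnfrsf11a was split almost evenly by reads, 563 against 569, which is 27.5 CPM in the marked cells against 130.5 CPM in the others. Without cell 22 the others stood at 33.9 CPM. Marked and other cells also differed in depth (medians of 668624 and 400449.5 reads), in 10 luminal progenitor markers (3029 and 9119 CPM summed) and in 6 fibroblast markers (612 and 7098 CPM, with 3 or more found in 2 of 31 and 3 of 10 cells). The part of these in the differences was not tested.

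Prlr gave no usable split, because 40 of 41 thinned adult luminal cells held it. By level, Ptn and Prlr had a Pearson r of 0.91 over the 41 cells, on log2(thinned reads + 1), and Prlr was the gene most like Ptn among 8136. The 41 points fall into clusters, however. Within the 31 marked cells r was 0.41 for Ptn, 0.34 for Tph1, 0.38 for Stc2 and 0.31 for Arg1. All points share the chip chemistry and were thinned to 1 depth, and these r are descriptions across cells.

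**Figure D3:**
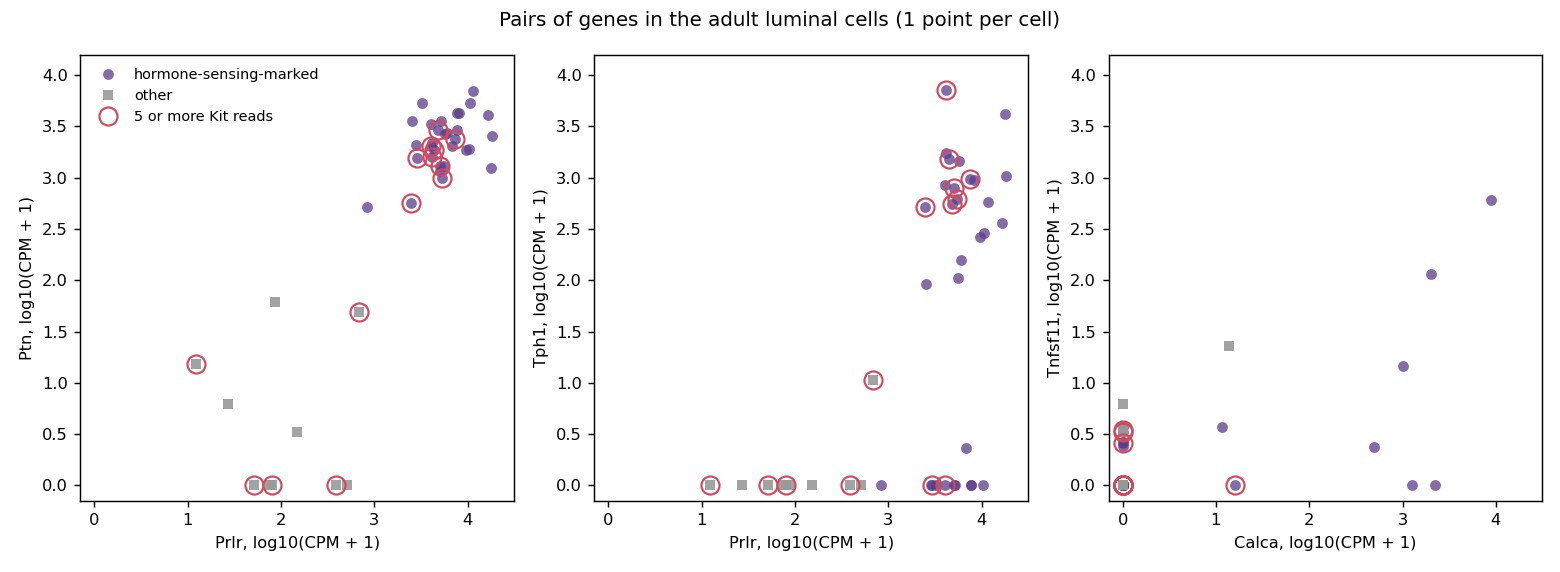
Ptn against Prlr, Tph1 against Prlr, and Tnfsf11 against Calca in the 41 adult luminal cells, as log10(CPM + 1) on both axes. Each point is 1 cell (circles, hormone-sensing-marked; squares, other; red rings, 5 or more Kit reads), and the 3 cells with the most Tnfsf11 reads, numbers 23, 2 and 21, all have high Calca.

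Esr1 was found in 24 of 41 thinned adult luminal cells. Stc2 was found in 19 of 24 cells with Esr1 (79.2%, interval 57.8 to 92.9) and 4 of 17 without (23.5%, 6.81 to 49.9), Ptn in 24 of 24 and 9 of 17, and Tph1 in 15 of 24 (62.5%) and 6 of 17 (35.3%). These 3 of 6 members passed 25 points, beside 13.2% of 8136 genes, and none was less often found by as much, beside 1.06%. Which members passed depended on the setting. No thinning gave Tph1, Stc2 and Arg1, and the paper's own minimums per cell gave Stc2, Ptn, Arg1 and Calca. Another seed and thinning to 100000 reads each gave Tph1, Stc2, Ptn and Arg1, while a minimum of 5 thinned reads gave Ptn alone. All 24 cells with Esr1 were hormone-sensing-marked, so this split also parts marked from other cells. Among the 31 marked cells, Tph1 was found in 15 of 24 with Esr1 and 5 of 7 without, Arg1 in 13 of 24 and 4 of 7, and Ptn in all. Stc2 was found in 19 of 24 and 4 of 7 (57.1%), and Calca in 7 of 24 and 0 of 7. With 7 cells on 1 side, only wide differences could be seen.

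Kit was found in 14 thinned adult luminal cells. None of the 6 members was found 25 points or more oftener with Kit or less often, beside 6.44% and 2.91% of 8136 genes. The count found less often depended on the random draw, since another seed gave 3 (Stc2, Ptn and Arg1), while no thinning gave 1 (Stc2), 100000 reads gave 1 (Calca) and a minimum of 5 thinned reads gave 1 (Ptn). Tph1 was found in 8 of 14 cells with Kit (57.1%) and 13 of 27 without (48.1%), and Stc2 in 7 of 14 (50.0%) and 16 of 27 (59.3%). Arg1 leaned away from Kit, at 4 of 14 (28.6%) and 14 of 27 (51.9%), as did Calca at 1 of 14 and 7 of 27. Tnfrsf11a leaned towards it, at 4 of 14 (28.6%) and 2 of 27 (7.41%), with wide intervals of 8.39 to 58.1 and 0.91 to 24.3. Before thinning, 77.9% of the adult luminal Tnfrsf11a reads were in the 14 cells with 5 or more Kit reads. Of all 1132 Tnfrsf11a reads, 431 were in cell 22 and 246 in cell 43. The 14 cells held 55.5% of the Tph1, 45.9% of the Stc2, 21.3% of the Ptn, 17.7% of the Arg1 and 0.0829% of the Calca reads. Cell 8, with 46 Kit reads, held 7010 of the 10697 Tph1 reads in the 14 cells. The shares of the members' reads were not set beside the share of all reads that the 14 cells held.

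The members also met each other in single cells. All of Tph1, Ptn, Stc2 and Arg1 were found together in 9 of 41 thinned adult luminal cells, each hormone-sensing-marked, and in none of 96 pregnancy cells. Every adult luminal cell with Tph1, Stc2, Arg1 or Calca after thinning also held Ptn. Tph1 and Stc2 shared 15 cells, 71.4% of the Tph1 cells and 65.2% of the Stc2 cells. Marked cells held a median of 3 members and up to 6, and 6 of the 10 others held none. Tnfsf11 and Calca shared the 3 thinned cells that held Tnfsf11, which is 37.5% of the Calca cells. Before thinning, cells with 5 or more Calca reads held 555 of the 571 Tnfsf11 reads. None of the 4 cells with 5 or more Tnfsf11 reads had 5 or more Tnfrsf11a reads, which 8 of all 41 cells had. With 4 cells, a separation of ligand and receptor cannot be shown.

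The genes whose levels were most like a member over the 41 adult luminal cells were as follows, with r on log2(thinned reads + 1). For Tph1 they were Mboat1 (0.65), Inafm2 (0.59) and Slc7a2 (0.58), a cationic amino acid transporter. For Stc2 they were the fibroblast growth factor receptor Fgfr2 (0.72), Prlr (0.59) and Gpx3 (0.58). For Ptn, Prlr (0.91) was followed by Wfdc2 (0.87) and the heparan sulfate proteoglycan Gpc1 (0.86). For Arg1 they were Med15 (0.66), the transcription factor Foxp1 (0.62) and Parp2 (0.62). For Tnfrsf11a they were Tagln (0.73), a smooth muscle gene of basal cells, Pkd2 (0.72) and Zfp612 (0.71). For Calca they were Smpd2 (0.70), Sptlc1 (0.68) and Gtpbp6 (0.68), each found in 5 to 9 cells, as Calca and Tnfrsf11a were found in 8 and 6.

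Pregnancy cells were separated by 10 basal and 10 luminal markers, with 6 or more of a set as the rule, again set with the data seen. This gave 29 luminal-marked, 30 basal-marked and 33 both-marked cells and 4 with neither set. No doublet caller was run, and both-marked cells could hold captures of 2 cells as well as single cells with both programmes. Of the luminal-marked cells, 3 were hormone-sensing-marked, against 31 of 41 adult luminal cells. In summed reads, fewer cells of a type and less RNA per cell cannot be told apart.

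**Figure D4:**
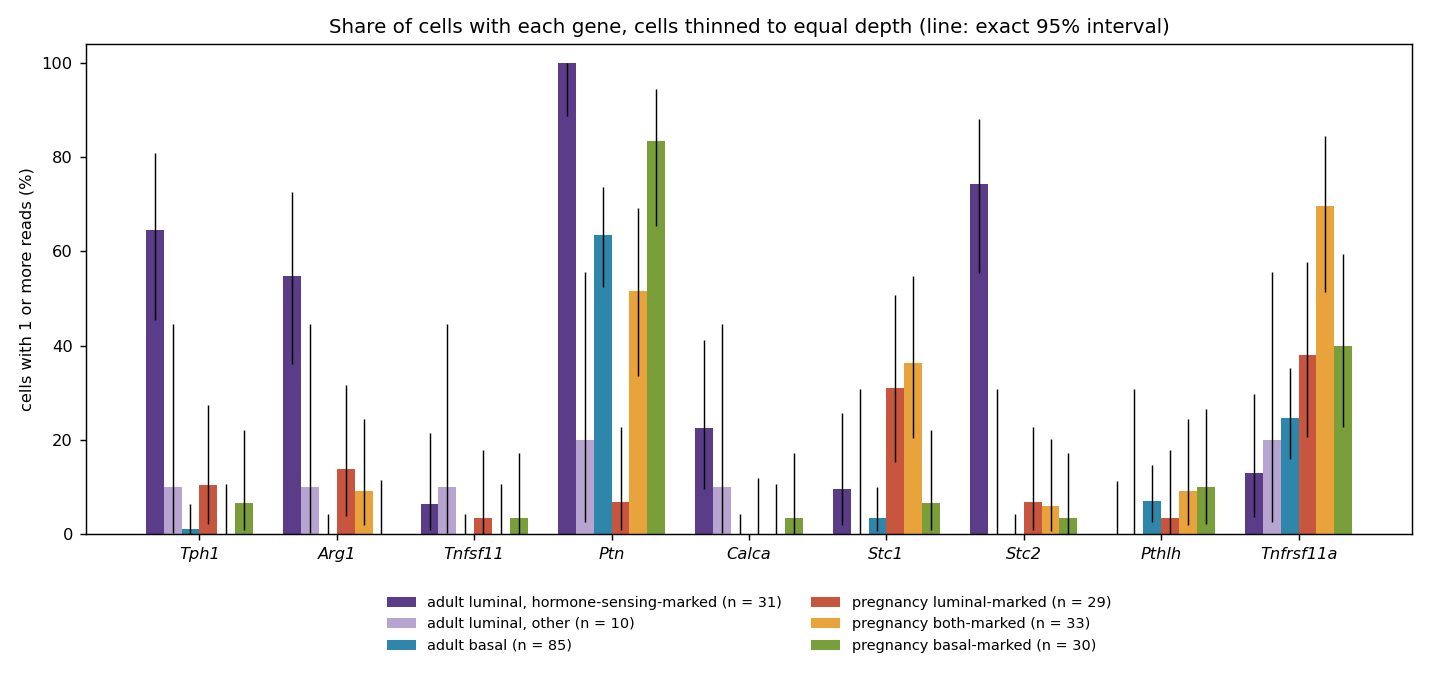
Share of thinned cells with 1 or more reads of each gene (percent, vertical axis) in 6 classes of cells, with the exact 95% interval as a line. Ptn and Stc2 are highest in adult hormone-sensing-marked cells (100% and 74.2%), Stc1 in pregnancy both-marked (36.4%) and luminal-marked cells (31.0%), and Tnfrsf11a in pregnancy both-marked cells (69.7%).

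Against adult luminal cells, 6 of 9 members were 4-fold or more lower in the pregnancy luminal-marked cells, beside 18.6% of 15338 genes, and 2 were 4-fold or more higher, beside 9.30%. The median log2 ratio was -2.83, beside -0.71 over all genes. TMM scaling shifts these ratios by 0.66 and gives 5 lower and 3 higher members. Calca was lowest, with 1 read against 12057 and a log2 ratio of -11.82 (-17.13 to -9.34). Ptn followed at -6.59 (-6.82 to -6.36), then Tnfsf11 at -4.42, Stc2 at -3.95, Arg1 at -2.83 and Tph1 at -2.20 (-2.28 to -2.12). Stc1 was higher by 3.13 (2.88 to 3.38) and Pthlh, with no adult luminal read and 42 in pregnancy cell 58, at least 46.6-fold. Tnfrsf11a was higher by 1.98 (1.87 to 2.10), just under 4-fold, and past it at 2.65 with TMM scaling, where Tph1 at -1.54 was no longer 4-fold lower. With every cell given the same weight, Tph1 stood at -0.18 and Arg1 at -1.49, so that 4 members were lower, and Tnfrsf11a stood at 0.91. Without cell 35 Tnfrsf11a was at 2.27, and 3 members were higher. Without the cell with the most reads in each group, Ptn was at -10.61 and Stc2 at -6.55. Calca and Tnfsf11 then had no pregnancy luminal-marked read, with bounds of at most -9.02 and -3.36, and Pthlh had no read in either group.

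Of the 5 hormone-sensing-marked pregnancy cells, 3 were luminal-marked, 1 basal-marked and 1 both-marked. Luminal-marked cells 73, 112 and 70 had 704, 551 and 3 Tph1 reads, which is 5499 CPM in sum against 939.3 CPM in adult hormone-sensing-marked cells. Ptn was in cell 70 alone of the 3, with 148 reads, and Arg1 in cell 73, with 9. No read of Stc2, Stc1, Calca, Tnfsf11 or Tnfrsf11a was found in the 3 cells, a number too small to limit the share. In the other 26 luminal-marked cells Tph1 had 3 reads and Ptn 9 (1.24 CPM). The luminal-marked level thus came mostly from cells 73 and 112 for Tph1 and from cell 70 for Ptn. Of the 5 pregnancy cells with Tph1 after thinning, 4 held 3 or more basal markers. Basal-marked pregnancy cell 98, which held 7 hormone-sensing markers and all 10 basal ones, had 128 Tph1, 225 Ptn and 69 Tnfrsf11a reads. Both-marked cell 71 had no Tph1 read, and it held 90 reads of Ptn, 43 of Tnfrsf11a and 7 of Arg1. All of these cells had title numbers above 55, and among the 45 pregnancy cells up to that number Tph1 had 1 read.

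Stc1 was found in 9 of 29 luminal-marked (31.0%, interval 15.3 to 50.8) and 12 of 33 both-marked cells (36.4%, 20.4 to 54.9), against 2 of 30 basal-marked cells (6.67%, 0.818 to 22.1). By level it stood at 66.2, 39.8 and 2.97 CPM. Cell 18 gave 62.3% of the luminal-marked reads, and 26.4 CPM remained without it, under 4-fold above adult luminal cells. Besides 7 luminal markers, cell 18 held 5 basal, 4 endothelial, 6 fibroblast and 8 cell cycle markers. The Stc1 level also differed by title number, with 160.6 CPM in luminal-marked cells up to 55 and 17.8 CPM above, though 46.6 CPM up to 55 without cell 18, and 68.2 and 26.2 CPM in both-marked cells. None of the 3 luminal-marked hormone-sensing-marked cells held Stc1. Of the 24 pregnancy cells with Stc1 after thinning, 7 held 3 or more of 5 endothelial markers and 14 held 3 or more of 10 cell cycle markers, and their part in the level was not tested.

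Tnfrsf11a was found in every class of pregnancy cells at a similar level, 180.1 CPM in luminal-marked, 146.7 in basal-marked and 125.5 in both-marked cells. Shares were 11 of 29 (37.9%, interval 20.7 to 57.7), 12 of 30 (40.0%, 22.7 to 59.4) and 23 of 33 (69.7%, 51.3 to 84.4). Luminal-marked cell 107 held 52.6% of that class's reads, and 93.3 CPM remained without it. Against adult basal cells, pregnancy basal-marked cells had a log2 ratio of -0.11 (-0.23 to 0.01) for Tnfrsf11a and 0.20 (0.10 to 0.29) for Ptn. Ptn was thus at a basal level that differed little between stages, 214.6 and 245.6 CPM, while in luminal cells it was at 2025 and 21.0 CPM.

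The partner genes of the members, 40 in all, were counted from lists chosen by role. In adult luminal over adult basal cells 10 of 40 were 4-fold or more higher and 4 lower, beside the 21.3% and 13.8% of all genes. Genes are named here where at least 10% of a group's thinned cells held them. In adult luminal cells 8137 of the 25169 genes reached that share. Of 8 serotonin genes beyond Tph1, 2 reached it in adult luminal cells and 3 each in adult basal and pregnancy cells. The degrading enzyme Maoa and the vesicular transporter Slc18a2 did so in all groups, at 103.4 and 72.7 CPM in adult luminal cells. Ddc, which completes serotonin synthesis, was found in 1 of 41 cells and in none of the 31 marked cells. The serotonin receptor Htr1d was found in 20 of 85 adult basal and 2 of 41 adult luminal cells. For RANK, the decoy receptor Tnfrsf11b was found in 4 of 85 adult basal cells and no adult luminal cell, and Id2, a target in mammary cells, stood at 562.0 CPM in adult basal and 150.1 in adult luminal cells.

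Of 8 genes of arginine use, 7 reached the share in adult luminal cells and 6 each in adult basal and pregnancy cells. Arg2, the mitochondrial arginase, was found in 24 of 41 adult luminal and 3 of 85 adult basal cells (219.5 and 6.46 CPM), and the arginine transporter Slc7a2 in 31 and 12 (508.2 and 25.3 CPM). Both were higher in hormone-sensing-marked than in other luminal cells, 258.9 against 34.2 CPM and 614.3 against 9.40 CPM. Odc1, which makes polyamines from ornithine, was found in 14 of 41 adult luminal and 46 of 85 adult basal cells. Of 6 pleiotrophin partners, 1 was 4-fold or more higher and 2 lower in adult luminal than in adult basal cells. The related factor Mdk was found in 39 of 85 adult basal and 2 of 41 adult luminal cells, the receptor Ptprz1 in 27 and 7, the proteoglycans Sdc3 in 17 and 2 and Sdc1 in 10 and 7, and nucleolin (Ncl), which also binds the factor, in all 85 and all 41. Pappa, the protease that stanniocalcin 2 inhibits, was found in 5 of 41 adult luminal cells, and in basal cells it was found in 22 of 85 at the adult stage and in 15 of 30 basal-marked cells in pregnancy.

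Of the receptors for the Calca peptides, Calcrl was found in 6 of 41 adult luminal and 8 of 29 pregnancy luminal-marked cells, and the calcitonin receptor Calcr in no adult cell. Pth1r, the receptor of the Pthlh product, was found in no adult cell and in 2 of 96 pregnancy cells. The other hormone-driven ligands Areg and Wnt4, which are also among the 10 markers, were found in 33 and 17 of 41 adult luminal cells and in 1 of 85 adult basal cells each, and in 4 of 96 pregnancy cells each.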

How the data were processed

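RNA of 278 single FVB/NJ mouse mammary cells was sequenced. The authors aligned the reads to mm10 with Subread 1.4.6 and deposited for each cell the counts made with featureCounts, which are not normalised and are keyed by Entrez gene. Whether strand was used in counting is not given in the sources used here. Of 27179 gene IDs, 25275 were paired with a symbol, and the 1904 others (1.20% of reads), 15 mitochondrial and 91 ribosomal protein genes were left out. Cells with 50000 or more reads of the remaining 25169 genes were kept. Reads were drawn without replacement to 50000 per cell for detection (1 or more reads), and levels were computed from all reads. Capture sites had been inspected by eye by the authors, and no doublet caller was run here. Groups came from the cell titles. Each group counted as 1 sample, so ratios have exact binomial intervals, shares Clopper-Pearson intervals and summed counts Poisson intervals, with no p-value. A group with no read was set to 3 counts over the group for a bound. Called means 4-fold for levels and 25 percentage points for shares. The 9 genes, the partner and marker lists, the class thresholds and the title number 55 were chosen with earlier results of these data known. The genes named with a member are the 3 with the highest r among genes found in 10% of adult luminal cells. The scripts were tested on simulated data. Python 3.11.15, numpy 2.4.6, pandas 2.3.3, scipy 1.17.1, matplotlib 3.10.9, R 4.3.3 and edgeR 4.0.16 (TMM factors only) were used. Alternatives were other thinning depths and seeds, thresholds, TMM scaling and leaving out single cells.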

Additional observations from a re-analysis of the deposited data

How the results depend on the processing

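No paired analysis was possible because the numbers in the titles name cells and pair none across groups. Of the 47 alternative values of the counts of members called, 39 stayed within 1.5 times and 8 moved. Dropping the filter on low counts is among the 39 and could not differ, because all 9 members pass that filter. Only counts were compared, so the members named can change where the count stays. The count of members higher in pregnancy luminal-marked than in adult luminal cells, 2 in the report, was 1 without the cell with the most reads of a gene, 1 among pregnancy title numbers up to 55, and 1 with at most 3 basal markers allowed. The count oftener found with Esr1, 3 in the report, was 1 at a minimum of 5 thinned reads and 5 at 15 percentage points. The count oftener found with Kit, 0 in the report, was 1 with cells thinned to 100000 reads, at a minimum of 5 thinned reads, and at 15 percentage points, each time Tnfrsf11a. Of the values of single genes, 59 lay outside the counting interval of the reported value (or away from it, for a bound), 111 did not, and none changed sign. The causes were not tested. Depth limits detection, as Stc2 was found in 5 of 96 thinned pregnancy cells and in 12 before thinning, and Stc1 in 24 and 35.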

Other observations

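Pregnancy cell 15, a basal-marked cell of 73972 reads, held 136 Calca and 9 Tnfsf11 reads together with 4 of 10 hormone-sensing markers. It was the pregnancy cell with the most reads of each gene, and Calca and Tnfsf11 also met in adult luminal cells 23, 2 and 21. Ddc, which completes serotonin synthesis after Tph1, stood at 115.8 CPM in adult luminal cells outside the hormone-sensing-marked class and at 0.146 CPM within it, where Tph1 was at 939.3 CPM. All 505 reads behind the former value were in cell 26, which held 2 of 10 luminal and all 6 fibroblast markers.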
